A study of Homo sapiens with 36 samples.

Results

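TET1 peaks called after MBD3 siRNA were laid over those called after the control siRNA siNC in HEK293T, an established kidney-derived human cell line that expresses SV40 large T antigen. All peaks of both lists were taken, 259 from siMBD3 and 28450 from siNC, together 28709 of the 62066 peaks deposited for the 6 siRNAs of the series. Both groups are the same cell line, transfected with siRNA and pulled down with the same antibody to TET1, and the labels give no other treatment and no time after transfection. There were 3 pull-down and 3 input libraries per siRNA, 12 of the 36 in the series, but each siRNA has 1 peak list whose name joins replicates 1 to 3, so no spread between replicates could be computed and no test was run. Levels of MBD3 and TET1 after transfection were not analysed here.

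TET1 is a dioxygenase that oxidises 5-methylcytosine to 5-hydroxymethylcytosine and further products, the route by which methylated DNA can be demethylated. MBD3 belongs to the methyl-CpG-binding domain family and is a subunit of the nucleosome remodelling and deacetylase complex NuRD, which joins histone deacetylases to a CHD-family chromatin-remodelling ATPase. MBD3 and its relative MBD2 form separate versions of NuRD. The mammalian MBD3 protein is known for weak binding to methylated CpG compared with MBD2.

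Few siNC sites had a peak after MBD3 siRNA, and those that did were mostly sites of high read background close to centromeres. A siNC peak is called kept where it shares at least 1 bp with a siMBD3 peak, and lost where it shares none. Over the whole lists 50 of 28450 siNC peaks were kept (0.176%), and 57 of 259 siMBD3 peaks lay over siNC (22%). A pair of windows dense in siMBD3 peaks, chromosome 11 at 34 to 36 Mb and chromosome 8 at 32 to 33 Mb, held 98 siMBD3 peaks (37.8%) in 63 distinct intervals and 31 siNC peaks, of which 1 was kept. They are left out below. Outside them 49 of 28419 siNC peaks were kept (0.172%, 95% Clopper-Pearson interval 0.128 to 0.228), and 53 of 161 siMBD3 peaks lay over siNC (32.9%, 25.7 to 40.8). The other 108 siMBD3 peaks had no siNC peak and are called new. These intervals cover counting error only.

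Location separated kept from new sites. Coordinates are on hg19, counted from 1. Each chromosome has a peak-poor stretch, the longest interval without a siNC peak of fold 4 or more plus 1 Mb at both ends. It mostly surrounds the centromere, and everything outside it is called an arm. In the peak-poor stretches 38 of 59 siMBD3 peaks lay over siNC (64.4%, 50.9 to 76.4). On the arms 9 of 64 did (14.1%, 6.64 to 25), and 55 were new. Peaks that share an interval are not independent. Over distinct intervals the numbers were 25 of 44 in the peak-poor stretches (56.8%, 41 to 71.7) and 8 of 59 on the arms (13.6%, 6.04 to 25). Unplaced sequences held 6 peaks over siNC and 3 new ones. The mitochondrial genome held 29 siMBD3 peaks and 0 siNC peaks, so all 29 were new by construction.

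**Figure D1:**
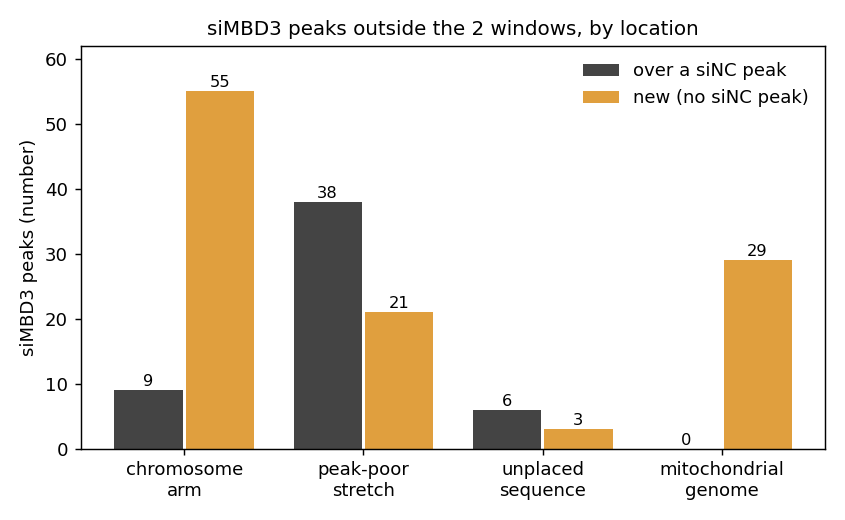
Number of siMBD3 peaks outside the 2 windows in each location class, dark bars for peaks over a siNC peak and orange bars for new peaks. Most arm peaks were new (55 of 64), and most peaks of the peak-poor stretches lay over siNC (38 of 59).

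Seen from the control list the same split appears. On the arms 10 of 27947 siNC peaks were kept (0.0358%, 0.0172 to 0.0658). In the peak-poor stretches 34 of 369 were kept (9.21%, 6.47 to 12.6), and on unplaced sequences 5 of 103 (4.85%, 1.59 to 11). Both of these shares stand above the 0.172% of all siNC peaks outside the windows, and the arm share stands below it.

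Enrichment at kept sites was low in the peak-poor stretches, while on the arms kept sites spanned a wide range of folds. Fold enrichment is the authors' ratio, taken at the summit, of the pull-down over the local control, and it belongs to the list in which it stands. The peak-poor stretches were themselves drawn from siNC folds, so location and fold are not independent descriptions. Over all locations the kept siNC peaks had a median siNC fold of 1.44 and the lost ones a median of 6.74. In the peak-poor stretches these medians were 1.39 for 34 kept peaks and 6.5 for 335 lost ones. By the rule, siNC peaks of fold 4 or more can lie only in the 1 Mb added at both ends. The lower quartile of the lost ones was 4.62, so most of them lay in those ends, and the contrast is partly set by how the stretches were drawn. On the arms they were 5.73 for 10 kept peaks, which ranged from 2.14 to 13.1, and 6.75 for 27937 lost ones. Of the 66 siNC peaks under 2-fold, 37 were kept (56.1%, 43.3 to 68.3), and of the 28353 peaks at 2-fold or more, 12 were (0.0423%, 0.0219 to 0.0739). The lowest fold quartile, 1.09 to 4.96, held 44 kept peaks of 7105, and the higher quartiles held 1, 2 and 2. On the arms alone the quartiles held 5, 1, 2 and 2 kept peaks, each of 6972 to 7002.

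Among the 1000 siNC peaks of highest fold, 14.5-fold or more, siMBD3 had a peak at 0, which allows a share of up to 0.3%. That limit lies above the 0.176% kept over the whole siNC list, so the 0 does not set the strongest peaks apart. Among the 5000 of highest fold, 10.0-fold or more, it had a peak at 1. siCHD5, the one other list of comparable length, had a peak at 1000 of the same 1000 and at 4982 of the 5000, and siMBD2 at 7 and 15. The shares of these other lists over all siNC peaks are not given here.

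**Figure D2:**
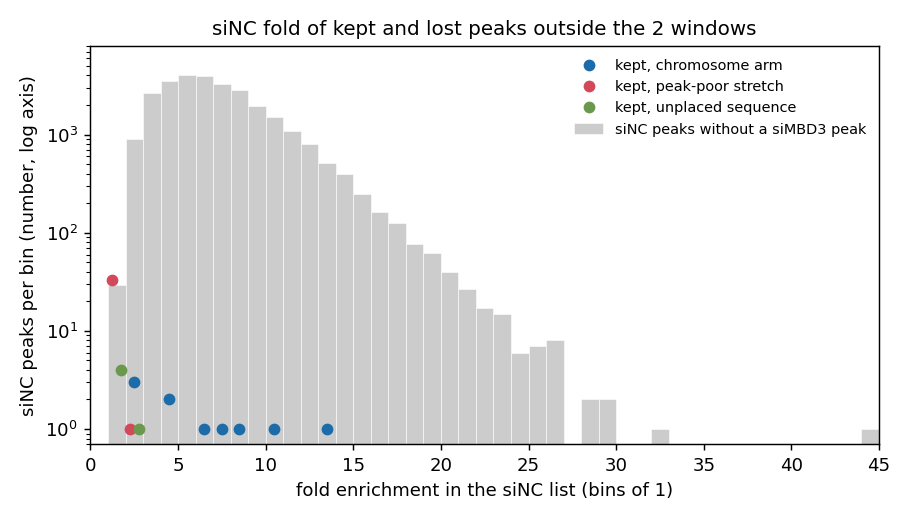
Number of siNC peaks outside the 2 windows per bin of siNC fold, on a log axis, grey bars for lost peaks and points for kept peaks in each location class. Kept peaks of the peak-poor stretches sit below 3-fold, and the 10 kept arm peaks reach 13.1-fold while lost peaks reach 44.3-fold.

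The 10 lost siNC peaks of highest fold all lay on arms and all had a siCHD5 peak. The first, on the long arm of chromosome 17 at 43212531 to 43213330, was 800 bp wide with 44.3-fold enrichment in siNC, and its nearest siMBD3 peak was 3397022 bp away. The same chromosome had sites at 41837676 to 41838177 (32.5-fold) and at 17259320 to 17259822 (28.7-fold). Chromosome 7 gave the sites at 150869517 to 150869997 (29.2-fold) and 101151020 to 101151504 (26.3-fold). Chromosome 16 gave those at 90182560 to 90183025 (29.1-fold), 60818 to 61233 (29.0-fold) and 4303989 to 4304446 (26.6-fold), the first 2 close to the ends of the chromosome. The remaining sites, both at 26.4-fold, were 153212675 to 153213167 on chromosome X and 50604151 to 50604620 on chromosome 19. No siMBD3 peak lay within 2 Mb of any of the 10, and siMBD2 had a peak at 2 of them, the 44.3-fold site and the chromosome 16 site at 60818.

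Read levels at the summits were recovered from the deposited fold and −log10 p-value, which together fix how many pull-down reads and how much control background a summit has. They are reads as the authors' peak caller piled them over pooled libraries, not scaled to a common depth. Of 54 siNC peaks with a control background of 100 reads or more, 37 were kept (68.5%, 54.4 to 80.5). Of 27803 with a background under 10 reads, 7 were kept (0.0252%, 0.0101 to 0.0519). High control background thus moved with being kept, and its part in the result was not tested.

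Outside the windows 8 siNC intervals on the arms were kept, on chromosomes 1, 4, 5, 7, 11, 14 and 19. Several summits can share an interval, so intervals are the distinct regions. On chromosome 1 at 16840219 to 16840837 siNC had 13.1-fold enrichment on 164 pull-down reads, and siMBD3 had 4.85-fold on 40 reads at 16840583 to 16840982. Further along, at 16992647 to 16993973, siNC had 3 summits of up to 7.10-fold in the widest of all kept intervals, 1327 bp. siMBD3 kept only a 226 bp stretch of it, 16993439 to 16993664, at 4.35-fold.

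The other arm sites were single summits in both lists. On the long arm of chromosome 11 at 66206397 to 66206722 siNC reached 10.0-fold (46 pull-down reads) and siMBD3 4.36-fold (13 reads). On chromosome 14 at 63855500 to 63855859 the folds were 8.66 in siNC (58 reads) and 4.36 in siMBD3 (15 reads). On chromosome 5 at 415484 to 415818, near the end of the short arm, they were 4.78 (29 reads) and 3.99 (19 reads).

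At the 3 remaining arm sites siNC was below 4.1-fold. On chromosome 7 at 10979579 to 10979812 the folds were 4.04 in siNC and 4.09 in siMBD3, and the intervals shared 86 bp. On chromosome 4 at 174089260 to 174089512 they were 2.94 and 3.68, with 127 bp shared. On chromosome 19 at 7515548 to 7515916 they were 2.41 and 1.79, over a control background of 35.9 reads in siNC and 47.6 in siMBD3. These 8 siMBD3 intervals ran from 202 to 400 bp, each narrower than its siNC partner, and the median was 235 bp against 347.5 bp. siCHD5 had a peak at 6 of the 8, siMBD2 and siCHD4 at 1 each and siCHD3 at 0.

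Kept sites of the peak-poor stretches were 26 pairs of intervals, which involve 25 siMBD3 intervals because one of 841 bp on chromosome 7 covers 2 siNC intervals. Chromosome 2 carried 7 of the 26, chromosome 11 5 and chromosome 19 3. The 8 with the highest siNC fold began with 51580174 to 51580652 on chromosome 11, where siNC had 2.02-fold and siMBD3 1.97-fold enrichment. Next came chromosome 18 at 18519082 to 18519502 (1.85-fold in siNC, 1.26-fold in siMBD3), with 27731953 to 27732324 on chromosome 19 close behind (1.81-fold and 2.06-fold). They continued with chromosome 11 at 51584673 to 51584962 (1.71-fold and 1.97-fold), chromosome 10 at 42400237 to 42400660 (1.62-fold and 1.57-fold), followed by 67320530 to 67320876 on chromosome 9 (1.61-fold and 1.64-fold). The last were chromosome 1 at 121352015 to 121352304 (1.59-fold and 2.04-fold) and chromosome 11 at 51591054 to 51591356 (1.57-fold in siNC, 1.70-fold in siMBD3). The widest of them, on chromosome 2 at 92312610 to 92313392, was 783 bp in siNC and 765 bp in siMBD3. All 25 siMBD3 intervals had a siCHD5 peak, 24 had a siCHD3 peak, 24 a siCHD4 peak and 22 a siMBD2 peak.

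The kept sites of arms and of peak-poor stretches differed in how closely the lists matched. In the peak-poor stretches both edges lay within 30 bp of each other in 18 of 26 pairs, and the nearest summits were a median of 4 bp apart. On chromosome 1 at 121484367 to 121484722 both edges were identical. The fold was higher in the siMBD3 list in 22 of the 26 pairs, and in 2 of the 8 arm pairs. On the arms both edges lay within 30 bp in 0 of 8 pairs, and the nearest summits were a median of 112 bp apart (22 to 232). The siMBD3 pull-down pileup was a median of 0.94 times the siNC pileup in the peak-poor pairs (0.534 to 1.10) and 0.607 times on the arms (0.244 to 0.977). The control backgrounds stood in a ratio of 0.863 in the peak-poor pairs and 0.72 on the arms. Pileups were 71 to 11689 reads in siMBD3 at the peak-poor sites and 13 to 86 at the arm sites.

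**Figure D3:**
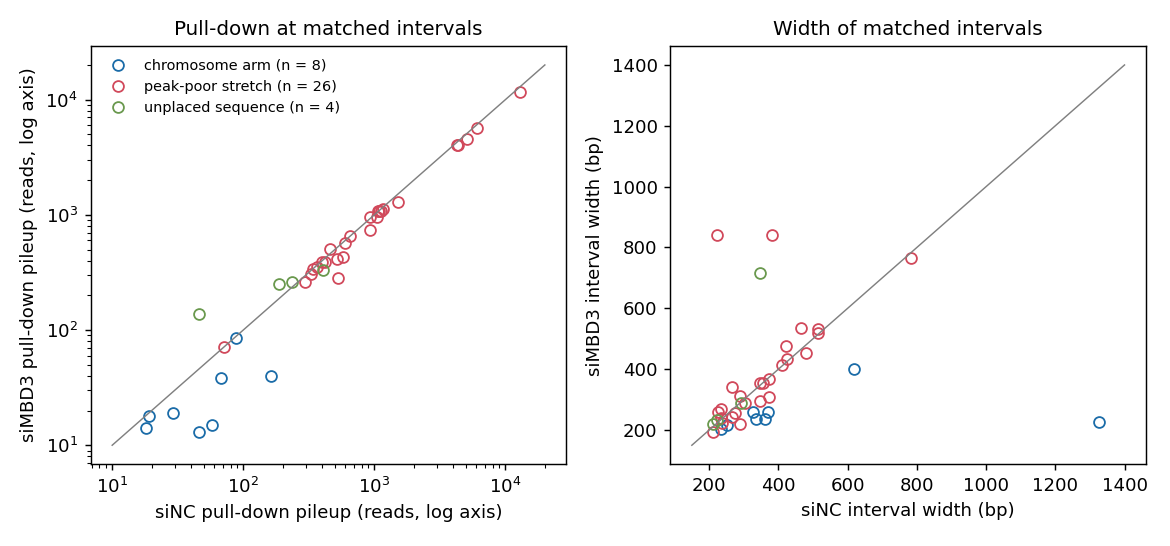
Left, pull-down pileup of matched intervals in siNC (x) and siMBD3 (y), in reads on log axes; right, interval widths in bp. Each point is 1 pair of overlapping intervals, coloured by location, and the grey line marks equal values. Peak-poor pairs follow the line in pileup (median ratio 0.94), and all 8 arm pairs fall below it in both panels.

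Unplaced sequences gave 4 kept intervals. The one of highest fold, on chrUn_gl000212 at 40577 to 40923, had 2.12-fold enrichment in siNC, where siMBD3 had a 717 bp interval with 3 summits of up to 4.83-fold. Its pileup was 137 reads in siMBD3 and 46 in siNC, the reverse of the order at the arm sites. The other 3 had folds of 1.37 to 1.51 in siNC and 1.39 to 1.66 in siMBD3.

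New sites were the larger part of the siMBD3 list outside the windows, 88 intervals of 125 (70.4%, 61.6 to 78.2). They comprised 51 arm intervals, 19 in peak-poor stretches, 15 on the mitochondrial genome and 3 on unplaced sequences. New arm intervals were short and rested on few reads: the median width was 258 bp (quartiles 214.5 and 308), the median fold 4.48 and the median pileup 16 reads over a control background of 2.67. The pileup was under 30 reads in 46 of the 51, and 12 stood at the lowest control background of the list, 2.21 reads. siNC arm peaks had a median pileup of 33 reads over 3.70. The 8 siMBD3 arm intervals over siNC had medians of 235 bp, 4.22-fold and 18.5 reads, so short width and few reads were not particular to the new ones. A single summit was called in 48 of the 51.

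**Figure D4:**
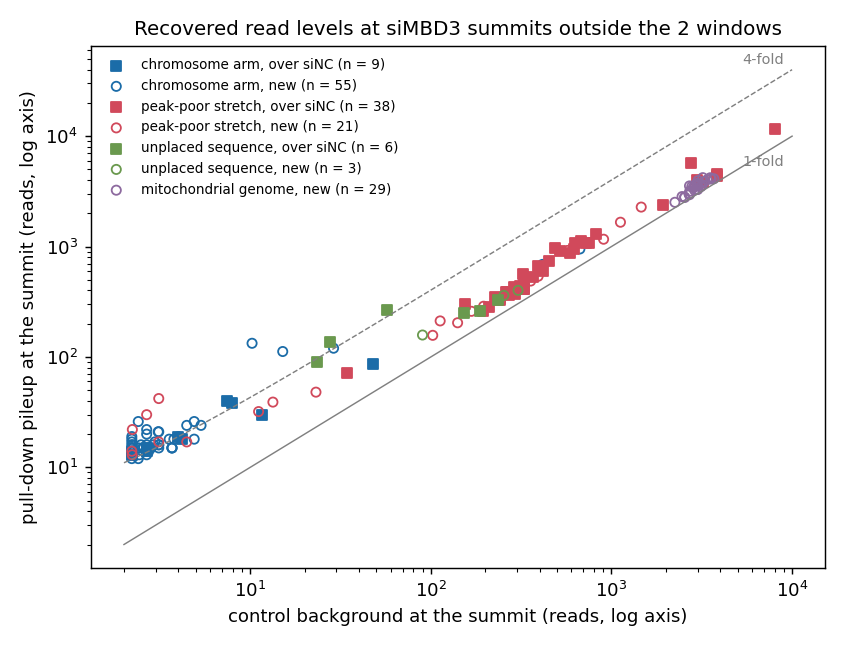
Pull-down pileup against control background at each siMBD3 summit outside the 2 windows, both in reads on log axes, filled squares for peaks over siNC and open circles for new peaks. Most new arm summits sit at the lower left with under 30 pull-down reads, and peaks of the peak-poor stretches and the mitochondrial genome mostly lie between the 1-fold and 4-fold lines with far more reads.

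Among new arm sites the highest fold, 11.9 on 133 pull-down reads, stood at 11186513 to 11186801 of chromosome 21, and siMBD2 had a 15.5-fold peak there. Its nearest siNC peak was 1601480 bp away, the farthest of the 51. A second chromosome 21 site at 11169904 to 11170161 had 5.61-fold on 17 reads and was in no other list. The peak-poor stretch of chromosome 21 ran from its start to 10584770, so both sites count as arm by that rule only. Their distance to the centromere was not measured. Chromosome 22 at 18717988 to 18718226 had 7.0-fold on 112 reads and a 7.52-fold siMBD2 peak. These sites on 21 and 22 at 11186513 and 18717988 were, with chromosome 22 at 18883764 to 18884066 (4.04-fold on 120 reads), the only new arm intervals with more than 100 pull-down reads and a fold above 2.

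Chromosome 3 carried more new arm intervals than any other chromosome, 10 of 51 (19.6%, 9.82 to 33.1), against 5.48% of the siNC arm intervals. None of its 1523 siNC intervals was kept, and none was on chromosomes 6, 12, 13, 15, 16, 17, 20, 21, 22, X or Y either. Over all chromosomes the kept share of siNC intervals was 0.136%, so this absence does not mark chromosome 3. All 10 new arm intervals of chromosome 3 lay on the distal long arm. Their first start, 168803950, and last end, 197677001, bound a span of 28.9 Mb that held 203 of 1520 siNC arm peaks of that chromosome. The span was drawn from these 10 intervals, so it holds all of them by construction, and the 203 of 1520 is not a comparison with them. The strongest were 169939930 to 169940142 (7.94-fold on 26 reads, with a 7.08-fold siMBD2 peak) and 186501110 to 186501781 (6.27-fold on 22 reads, also in siMBD2 and siCHD5). They were followed by 187463320 to 187463610 (5.34-fold, also in siMBD2 and siCHD5) and 168803950 to 168804158 (4.98-fold on 15 reads, in no other list). siMBD2 had 23 of its 26 chromosome 3 peaks in the same span, and 4 of the 10 siMBD3 intervals were among them. DNA copy number of the region was not analysed here.

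The other new arm sites of highest fold were spread over 6 chromosomes. Chromosome 20 at 46021215 to 46021413 (6.23-fold on 19 reads) and at 45946955 to 45947168 (4.98-fold), chromosome 18 at 3593148 to 3593362 (5.92-fold on 18 reads) and chromosome 12 at 52541888 to 52542168 (5.30-fold on 16 reads) were in no other list. On the long arm of chromosome 1 neighbouring intervals stood at 209602916 to 209603228 (4.98-fold, also in siCHD5) and 209603751 to 209604425 (5.72-fold, also in siMBD2). Chromosome 7 at 104653756 to 104653970 (5.37-fold on 21 reads) was also in siMBD2 and siCHD5. Chromosome 17 at 39810859 to 39811919 (5.27-fold) was the widest new arm interval, 1061 bp with 2 summits, and siMBD2 had a 3.91-fold peak there. The next widest were chromosome 19 at 13263263 to 13263967 (705 bp, 3 summits, 4.88-fold) and the 675 bp interval on chromosome 1 at 209603751. Over all locations the widest new intervals were mitochondrial, 1441 bp and 1069 bp.

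**Figure D5:**
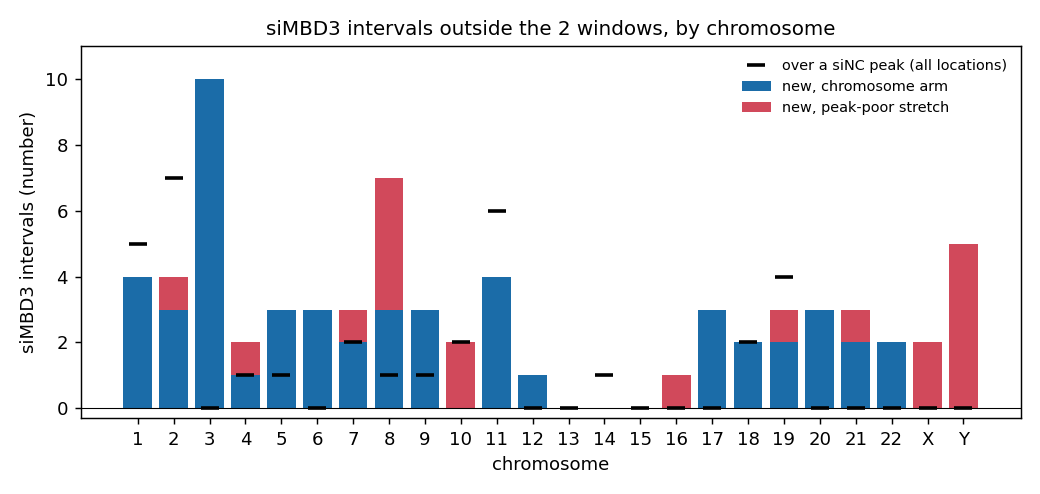
Number of siMBD3 intervals outside the 2 windows per chromosome, bars for new intervals on arms (blue) and in peak-poor stretches (red), black ticks for intervals over a siNC peak. Chromosome 3 has 10 new arm intervals and 0 over siNC. Chromosomes 6, 12, 16, 17, 20, 21, 22, X and Y also have 0 over siNC, and chromosomes 13 and 15 have no siMBD3 interval.

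Some new arm intervals had a neighbour, a share not set against that of siNC arm intervals. Of the 51, 21 fell into 10 groups whose members lay within 1 Mb of the next. The tightest were on chromosome 3 at 189072235 to 189073403, on chromosome 1 at 209602916 to 209604425, on the short arm of chromosome 6 at 26021209 to 26025803 and on chromosome 17 at 39810859 to 39815508, each with 2 intervals inside 5 kb. Chromosomes 10, 13, 14, 15, 16, X and Y had no new arm interval.

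Some new sites lay beside control peaks rather than on them. The median distance from a new arm interval to the nearest siNC peak was 20956 bp, with 21 of 51 within 10 kb and 4 within 1 kb. The nearest, on chromosome 8 at 33370785 to 33370995, was 19 bp from a 3.25-fold siNC peak. Chromosome 11 at 65479673 to 65479914 (4.36-fold) was 78 bp from a 16.3-fold siNC peak that counted as lost. The pair on chromosome 6 was 232 bp and 720 bp from siNC peaks of 4.80-fold and 6.43-fold. How often any arm position lies this close to a siNC peak was not computed.

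In the peak-poor stretches the new sites of highest fold were placed on chromosome Y, at 58827212 to 58827457 (10.4-fold on 42 reads), 58912517 to 58912736 (8.44-fold), 58823426 to 58823691 (7.13-fold) and 58844712 to 58844951 (4.67-fold). siMBD2 had a peak at each. Whether the reads there derive from chromosome Y was not tested. Chromosome 21 at 10558729 to 10559011 (4.37-fold) came next and was also in siMBD2. Of the 19 new peak-poor intervals, 13 had a siMBD2 peak, 8 a siCHD3 peak, 7 a siCHD4 peak and 6 a siCHD5 peak.

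Many sites absent from siNC were called after another siRNA too, and 27 of the 51 new arm intervals were in no other list. siMBD2 had a peak at 18 (35.3%), siCHD5 at 12 (23.5%), siCHD3 at 2 and siCHD4 at 2. The 2 in siCHD3 were also the 2 in siCHD4, 68265531 to 68265823 on chromosome 4 (1.66-fold) and 566185 to 566509 on chromosome 1 (1.42-fold), whose pileups of 689 and 951 reads were the highest of the new arm intervals. Among the 8 arm intervals over siNC the order was reversed, with siCHD5 at 6 and siMBD2 at 1. The siCHD5 list held 32749 peaks and the siMBD2 list 358, so these counts do not compare the lists at equal length. The 8 were also chosen for a siNC peak and the 51 for lacking one. siCHD5 had a peak at 4982 of the 5000 siNC peaks of highest fold, but most of the 8 rank below those 5000. The siCHD5 share at siNC peaks of lower fold is not given here, and the bearing of that choice on the counts was not tested. All 15 mitochondrial intervals had a siCHD3 peak, 14 a siMBD2 peak, 12 a siCHD4 peak and 0 a siCHD5 peak, with folds of 1.11 to 1.31 in siMBD3.

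Widths of kept and new intervals differed by location. In siMBD3 the median interval width was 235 bp over siNC and 258 bp for new intervals on the arms, 342 bp and 246 bp in the peak-poor stretches, and 383 bp on the mitochondrial genome. In siNC, kept intervals had a median of 341 bp and lost ones of 298 bp. Of 367 siNC intervals with 2 or more summits 10 were kept (2.72%, 1.31 to 4.95), against 28 of 27674 with 1 summit (0.101%, 0.0672 to 0.146). On the arms these numbers were 1 of 354 and 7 of 27228, so 9 of the 10 lay elsewhere.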

How the data were processed

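TET1 ChIP-seq of HEK293T cells was analysed from the deposited peak lists of siMBD3 and siNC, with the 4 other lists for context. The submitters' processing notes name the build hg19 and, with no roles, MACS2 2.1.2 (a peak caller), Bowtie2 2.3.4 (an aligner), SAMtools 1.9, bedtools 2.25.0, FastQC 0.11.7 and deepTools 3.5.0. Settings, duplicate removal and region filters are not given in the sources used here. Per the labels' protocols, fragments of 200 to 500 bp were amplified over 18 PCR cycles, and PCR reads without molecular identifiers are not independent molecules.

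Per the file names, peaks were called on replicates 1 to 3 together. The deposited values per peak are a fold ratio, a −log10 p-value, a −log10 q-value (lowest 1.30) and a score of 10 times the −log10 q-value cut to a whole number. The deposited lists give no read totals, so depth per library is unknown.

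Overlaps, medians and exact Clopper-Pearson 95% intervals were computed in Python 3.11.15 with scipy 1.17.1. Pileups were recovered for 259 of 259 siMBD3 and 28450 of 28450 siNC peaks, taking the fold as computed with pseudocount 1 and accepting a −log10 p within 0.02 of the deposited one. Overlap counting and pileup recovery were tested on simulated data. The simulated pileups had low control backgrounds and higher folds, so that test does not cover the high-background peak-poor and mitochondrial sites. The peak-poor stretch includes the span before a chromosome's first siNC peak where that is longest.

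Members, windows, location classes and the regions to name were chosen with earlier results of these data known. Named were all kept arm sites, the 8 strongest kept and 5 strongest new peak-poor sites, the 15 strongest new arm sites, the 10 strongest lost siNC peaks and the 3 widest kept and new intervals. Others were chosen after their values were seen, as were the limits on fold and background and the 1 Mb neighbour distance. The gene and promoter tables at hand are of another assembly, so sites are named by position and no sequence is printed.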

Additional observations from a re-analysis of the deposited data

How the results depend on the processing

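Of 51 alternative values, 38 stayed within 1.5 times the reported count or within the 95% order-statistic interval of the reported median. At −log10 q of 5 or more in both lists, the siNC list numbered 25159 peaks and the siMBD3 list 136. Kept siNC peaks then numbered 29, also 29 outside the windows, siMBD3 peaks over siNC 30 and new peaks 53, with a median new width of 339 bp. At 4-fold or more in both lists, these numbers were 6, 6, 5 and 51, the median kept width was 489.5 bp and the median siNC fold of kept peaks was 7.88, since that minimum removes the low-fold sites. On chromosomes 1 to 22 and X new peaks numbered 71, because the mitochondrial, unplaced and Y peaks drop out. A stricter reciprocal overlap, a summit inside the partner, peaks widened by 500 bp and distinct intervals each moved no count by over 1.5 times. Other limits of the peak-poor stretch, chosen after seeing the data, gave 53 and 60 new arm peaks and 10 and 11 kept ones. No paired analysis was possible because each list pools replicates 1 to 3, and for the same reason no replicate could be left out. New arm sites rest on a median of 16 reads, and depth per library is unknown.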
